A study of Drosophila melanogaster with 12 samples.

Results

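The spalt locus of Drosophila melanogaster holds spalt-related (salr, FBgn0000287) and spalt major (salm, FBgn0261648), a pair of neighbouring genes for zinc finger transcription factors on chromosome arm 2L. It is described here by the GATC fragments of the deposited Polycomb profiles whose start lies on 2L between 11250001 and 11520000 in the dm3 build, 270 kb that cover the pair and its flanks. Of the 356504 fragments in the table, 847 met this rule. The interval was selected on the Polycomb scores of these 3 profiles, so every level along it is a description and carries no test. In the Release 6 gene table, salr and salm follow each other along the arm with the non-coding gene lncRNA:CR43681 between them. CG14926 and lncRNA:CR44586 precede salr, and lncRNA:CR46454 and sala follow salm. That table belongs to another build than the scores, so genes are given by their order and no peak is assigned to an exon, an intron or a promoter.

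Spalt proteins are nuclear zinc finger factors that mostly act as repressors. In the fly, salm is a region-specific homeotic gene of the embryonic head and tail, and both genes are targets of Decapentaplegic signalling in the wing disc, where they pattern the wing veins. They also specify oenocytes, photoreceptor subtypes and fibrillar flight muscle, largely overlap in function, and share enhancers spread over the DNA around the pair. Polycomb is the chromodomain subunit of Polycomb repressive complex 1, which binds histone H3 methylated at lysine 27 and keeps many developmental genes silent. Such targets often lie in long Polycomb domains with stronger peaks at Polycomb response elements.

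Polycomb had been mapped by DamID, in which a Dam methylase fused to Polycomb marks GATC sites near the places where the protein sits, and Dam alone gives the background. The 12 libraries came from wandering larvae of the last instar and formed 6 groups with 2 biological replicates apiece. Each of 3 sources had a Dam-Polycomb group and a Dam-only group. Central brain libraries (the brain without the ventral nerve cord, 20 male larvae per sample) and fat body libraries (10 male larvae per sample) carried an M{} transgene at ZH51C in a y,w background. In it the FL.hsp70P promoter drives Dam, or its -PC fusion to Polycomb, with the insertion 4-HT-intein@L127C, an intein that responds to 4-hydroxytamoxifen. The brain was left uninduced, whereas fat body larvae were fed 4-hydroxytamoxifen at 25 µM. Glial libraries (20 larvae per sample, males and females pooled) carried repoFlp5 with M{min.hsp70P-STOP#1-Dam}ZH51C or its -PC fusion in y,w/w larvae. In this DamFLP system a recombinase made in cells that express repo, a glial transcription factor gene, switches the transgene on, so the profile comes from repo+ cells within whole dissected brains. All transgenes shared the ZH51C site. The hsp70 promoter had the FL form for brain and fat body and the min form for glia. The glial labels give the transgene over repoFlp5, and the other labels name no second allele. Tissue, induction and the number of larvae changed together between brain and fat body. Between brain and glia, the cells, the DamID system, the promoter form and the sexes changed together. Between fat body and glia, tissue, feeding of 4-hydroxytamoxifen and the number of larvae changed as well, and these cannot be told apart. Larvae were pooled in each sample, and no expression was measured, so the identity of the tissues was not checked by marker genes.

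The deposited value is the log2 ratio of Dam-Polycomb to Dam for each fragment, as the authors' mean over replicates. It has no error between animals, and its read depth is unknown. Profile medians over all scored fragments were -1.24 in brain, 0.09 in the fat body and -0.60 in glia. Unless called deposited, levels below are centred, which means that the median of the fragment's own profile was subtracted. Every SD is a spread over fragments or bins along the chromosome. The scatter of a 10-kb bin mean, taken from its odd and even fragments over the 6 chromosome arms, was 0.28 in brain, 0.31 in the fat body and 0.25 in glia. Differences between bin means of a pair of profiles then scattered by 0.42 (brain against fat body), 0.38 (brain against glia) and 0.40 (glia against fat body).

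Most bins of the salr and salm interval lay above the profile median in all 3 profiles, at different heights. Under the 2-state model of domains the lengths were alike, at 215 kb in brain, 212 kb in the fat body and 222 kb among glia. These calls were not equally strict, since domains held 18.1% of scored brain fragments on the arms, but 56.1% for fat body and 57.4% for glia. With a running mean over 11 fragments, the fat body length within the interval was 54.6 kb, against 214 kb in brain and 181 kb among glia. Lengths also differed under a 3-state model, which was stricter for fat body and glia but not for brain. In the central brain Polycomb formed an unbroken, even plateau of 215 kb, with a median of 5.45 log2 units above the middle of the profile over its 20 full bins. In repo+ glia the plateau was lower, at a median of 3.40, and the part in the top of 3 states was shorter at both ends. Quantile normalization gives all profiles the same distribution, and it used only the fragments scored in all 3 profiles. After it the medians were 3.85 in brain, 3.68 among glial bins and 1.36 among those of the fat body. In the fat body 12 of these 20 bins lay between 1 and 2 above the median, and 6 rose higher. The largest fat body values lay in 1 stretch of 9.90 kb.

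**Figure D1:**
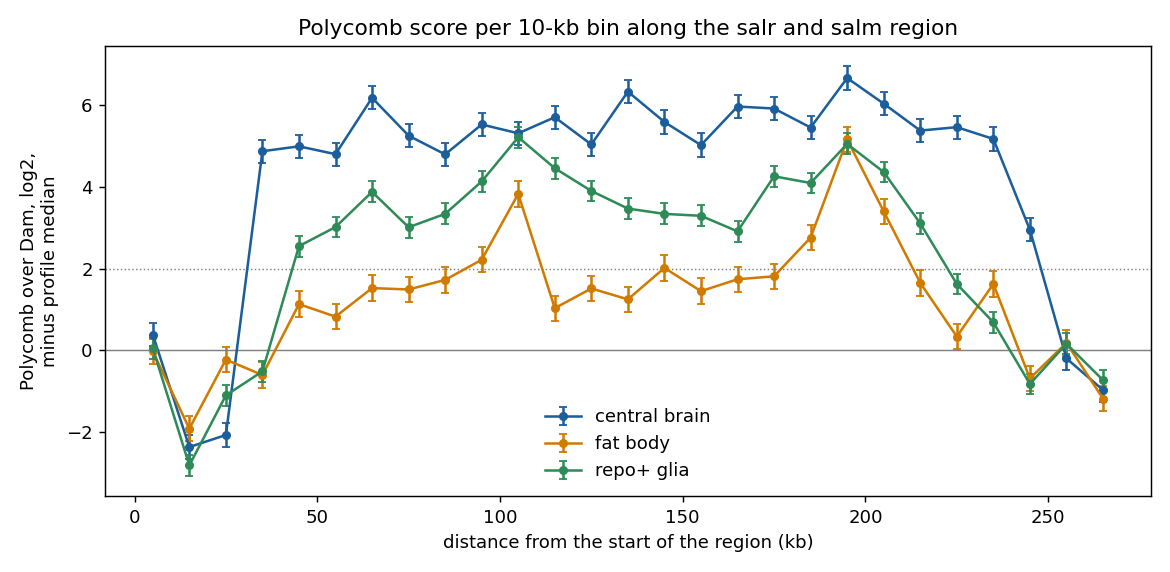
Mean Polycomb score per 10-kb bin (log2 ratio of Dam-Polycomb to Dam, minus the profile median) against the distance from the start of the region in kb, for central brain, fat body and repo+ glia. Bars are the scatter of a bin mean from odd and even fragments (0.28, 0.31 and 0.25), the dotted line marks 2, and brain stays between 4.79 and 6.65 over the 20 full bins of its domain while fat body ranges from 0.34 to 5.15.

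The 27 bins of the interval were first counted against a level of 2 above the profile median. In brain 22 bins were over this level, compared with 14% of 10467 bins on the 6 arms. In glia 18 bins were over it, compared with 8.99% of 11532 bins. In fat body 6 bins were over it, compared with 9.66% of 10784 bins. All 6 fat body bins were also over 2 in brain and glia, a combination found in 5.27% of the 9816 bins with a value in every profile. A further 12 bins were over 2 in brain and glia but not in the fat body (2.64% of bins genome-wide), and 4 were over 2 in brain alone (5.38%). The remaining 5 bins were the outer ones, at or below 0.39 in each profile. When only fragments scored in all 3 profiles were used, the counts were again 22, 18 and 6. The fat body count depends on the level chosen, with 18 bins over 1 and 3 bins over 3.

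A 2-state hidden Markov model placed a single brain domain in the interval, on 2L from 11282936 to 11497517. It held 367 of the 418 fragments scored in brain there (87.8%, against 18.1% of scored fragments on the arms). At 215 kb it was the seventh longest of 307 brain domains, while 94 of the others had a higher mean. Inside it the brain mean was 5.45 (SD over fragments 1.18, n = 367), which is 4.22 as deposited. The glial mean over the same stretch was 3.37 (SD 1.59, n = 446), or 2.78 as deposited. The fat body mean was 1.74 (SD 1.68, n = 218), or 1.83 as deposited. In the profiles that did not delimit the stretch, 96.0% of the glial fragments and 85.8% of the fat body fragments lay above their profile medians.

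Single fragments were counted too. The stretch was delimited by high brain scores, which favours brain, so these counts are a description. Of the 210 fragments inside the domain that had a score in every profile, 197 (93.8%) were highest in brain, 7 in glia and 6 in the fat body. Over the 92401 such fragments of the 6 arms, 31.2% were highest in brain, 25.6% in glia and 43.3% in the fat body. The lowest value fell in the fat body for 160 of the 210, in glia for 48 and in brain for 2. The median difference was 3.59 between brain and fat body, 2.26 between brain and glia and 1.16 between glia and fat body. Over the arms these medians were -0.559, -0.189 and -0.305 in the same order.

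A bulk score averages over cells. Polycomb bound in a smaller share of cells and weaker binding in every cell cannot be told apart, in the whole brain as in the fat body and in glia.

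**Figure D2:**
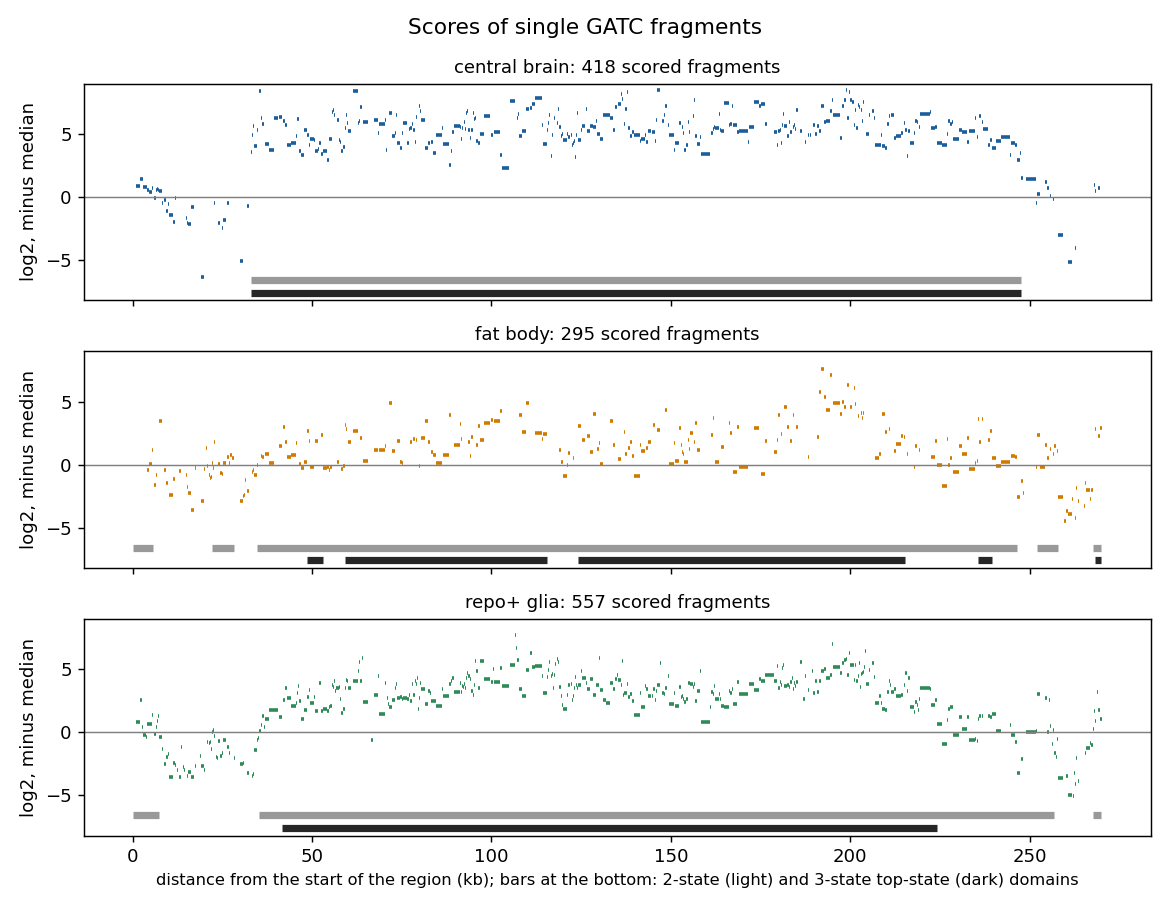
Scores of single GATC fragments (log2, minus the profile median) against the distance from the start of the region in kb, each drawn over its own length, in brain (418 scored), fat body (295) and glia (557). Bars at the bottom are domains of the 2-state model (light) and the top state of the 3-state model (dark), and the dark bar is unbroken in brain and glia and broken into 5 pieces in the fat body.

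The share of fragments with a score also moved with the profile. Of the 612 fragments inside the brain domain, 60.0% were scored in brain, 72.9% in glia and 35.6% in the fat body. For fragments of 200 bp or more the shares were 93.5%, 96.8% and 66.3%, against 60.3%, 80.1% and 68.1% over the genome. Brain and glia therefore had a larger share of these fragments scored inside the domain than over the genome, and the fat body did not. Short fragments were common in the interval, with 56.0% under 200 bp compared with 50.4% over the genome. Over fragments scored in all 3 profiles, the mean of the whole interval was 1.42 in the fat body, against 1.08 over all its scored fragments. With fragments scored in both profiles of a pair, brain was over 1 higher than fat body in 22 bins and than glia in 21, and glia over 1 higher than fat body in 15.

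At the left edge of the brain domain, which the model placed where brain rises, the last 5 scored brain fragments outside averaged -1.48 and the first 5 inside averaged 4.61. The 2-state domains of the other profiles began further in, at 11284623 in the fat body and 11285233 for glia. Measured in the same way at its own edge, the fat body rose from -0.96 to 0.52 and glia from -0.75 to 0.67. Each edge was placed on the profile measured, so the sizes of these steps, 6.09, 1.48 and 1.41, are a description. The bin from 11280001 to 11290000, which holds this edge, had means of 4.87 in brain (SD 2.07, n = 19), -0.60 in the fat body (SD 1.32, n = 19) and -0.51 in glia (SD 1.70, n = 24). It gave the largest differences of the interval, 5.47 between brain and fat body and 5.38 between brain and glia.

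In glia the strong part of the domain was shorter at both ends. The top state of a 3-state model left the brain extent as it was. In brain this state was no stricter, with 18.3% of scored fragments on the arms against 18.1% under 2 states. In glia it was stricter and ran from 11291673 to 11474280, 183 kb, the fourth longest of 559 such glial domains. It held 400 of 557 scored fragments (71.8%, against 13.3% on the arms). Between the brain edge and the glial edge on the left lay 8.74 kb with means of 5.49 in brain (SD 1.19, n = 18), -0.06 in glia (SD 1.58, n = 21) and 0.12 in the fat body (SD 1.09, n = 14). On the right, 23.2 kb from 11474281 to 11497517 had means of 4.71 in brain (SD 1.09, n = 28), 0.47 in glia (SD 1.19, n = 25) and 0.84 in the fat body (SD 1.51, n = 24). Both stretches were delimited as high in brain and not in glia, so the gap between those profiles there follows from the choice. The glial 2-state domain was wider, 222 kb from 11285233 to 11506765. Under 2 states domains held 475 of 557 glial fragments of the interval (85.3%), against 57.4% on the arms.

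The right end of the brain domain was less steep. The 5 scored fragments on each side averaged 3.30 inside and 0.64 outside. The bin from 11490001 had a brain mean of 2.95 (SD 1.46, n = 11), against -0.69 in the fat body (n = 7) and -0.82 in glia (n = 7). In the next bin, from 11500001, brain (-0.20), fat body (0.18) and glia (0.16) lay within the scatter of each other.

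Within the domain, the brain profile was the most even of the 3. Over the 20 full bins its means ran from 4.79 to 6.65 with an SD of 0.52. Fat body ran from 0.34 to 5.15 (SD 1.11) and glia from 0.68 to 5.21 (SD 1.08). These bins were delimited on brain scores, which favours evenness in brain, so the order of the profiles is a description. The glial range includes the right end bins from 11470001 and 11480001, at 1.62 and 0.68. Among the 36 other brain domains of 100 kb or more, the SD of brain bins had a median of 0.77, and 35 of them were more uneven in brain than this one. Some of the 35 were close to it, with SDs of 0.524, 0.528 and 0.531. In fat body 17 of the 36 were more uneven, and in glia 20. The evenness in brain was therefore near the end of the range of long domains, and the unevenness in the other profiles was in the middle of it.

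Along the 20 full bins, glia and fat body followed each other more closely than either followed brain. The bins were delimited on brain scores, which narrows the range of brain and can lower its correlations. That range was 1.87 in brain, against 4.82 in the fat body and 4.52 in glia. Pearson's r was 0.64 for glia with fat body, 0.46 for brain with fat body and 0.41 for brain with glia, and Spearman's rho was 0.58, 0.36 and 0.45. Over all 27 bins r was 0.87, 0.72 and 0.83, which includes the fall at both ends. Over the bins of the 6 arms r was 0.77, 0.60 and 0.74, so glia and fat body were the closest pair there as well. Neighbouring bins are not independent and share their GATC spacing, so these are descriptions. The median fragment length of a bin correlated with its level at 0.07 in brain, 0.06 in the fat body and -0.44 in glia over the 20 bins.

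The highest point common to the profiles was the bin from 11440001 to 11450000. It averaged 6.65 in brain (SD 1.17, n = 16), 5.15 in the fat body (SD 1.45, n = 12) and 5.05 in glia (SD 0.94, n = 17). As deposited these means were 5.42, 5.25 and 4.45. It was the highest of the interval in brain and fat body and the second highest in glia. Of all bins on the arms, 1.96% lay higher in brain, 0.603% in the fat body and 1.31% in glia, so that relative to its own profile the bin stood furthest out in the fat body. Glia and fat body differed there by -0.11, less than the scatter of their difference.

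All 12 fat body fragments of this bin were at 2.16 or higher, with a median of 4.93. The 7 fat body fragments over 5 in the interval all lay between 11441428 and 11451331, in this bin and the start of the next. They were 2.37% of the 295 scored in the interval, against 1.17% of scored fat body fragments on the arms. The highest, from 11441931 to 11442787, reached 7.61 in the fat body (7.70 as deposited, with 103 fragments of the genome higher), 7.25 in brain and 4.87 in glia. The second, from 11444346 to 11445050, was at 7.13 in the fat body, 6.83 in brain and 4.54 in repo+ glia. The third, from 11449076 to 11449613, was at 6.29, 6.31 and 4.55 in the same order. These were chosen for their fat body value, which favours a small gap to brain. Another of the 7, from 11447658 to 11448395, was at 5.00 in the fat body and 7.20 in brain. The neighbouring bins from 11430001 and 11450001 had fat body means of 2.76 (n = 8) and 3.40 (n = 12), and the bin from 11460001 was back at 1.65 (n = 10).

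A second, smaller rise lay further left. The bin from 11350001 to 11360000 had the highest glial mean of the interval, 5.21 (SD 1.30, n = 15), with 1.05% of all glial bins higher. Brain was at 5.30 there (SD 1.66, n = 10), so brain and glia differed by 0.10, the smallest gap inside the domain. Fat body was at 3.82 (SD 0.89), with 2.03% of bins higher, but this mean rested on 5 scored fragments, from 2.56 to 4.93. The highest glial fragment of the interval, from 11356457 to 11356718, reached 7.73 in glia and had no score in brain or fat body. Of the 11 glial fragments over 6 in the interval, 4 lay in this bin. The 11 were 1.97% of the 557 scored in the interval, against 0.823% of scored glial fragments on the arms. The second highest lay at the other rise, from 11445051 to 11445248 (7.03, with 7.71 in brain). The third, from 11436435 to 11436486, lay beside that rise in the bin from 11430001 (7.02, with no brain score). To the right of the bin from 11350001 the fat body fell at once, to 1.03 (SD 1.23, n = 8) in the bin from 11360001. Glia stayed at 4.45 there (SD 1.14, n = 30). This gave the largest difference between glia and fat body, 3.42.

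Between these rises, from 11360001 to 11430000, fat body bins stayed between 1.03 and 2.02. Glial bins there ranged from 2.91 to 4.45, and brain bins from 5.02 to 6.32. The fat body plateau was therefore above its profile median but within the upper part of the ordinary range, with 9.47% to 25.4% of all fat body bins higher. Over the 20 full bins the median share of bins higher was 14.1% in the fat body, 5.25% in brain and 4.86% in glia. Measured by rank within the profile, the medians of brain and glia were thus close, and fat body was lower. The 2-state model called a single fat body domain over nearly the whole brain extent, from 11284623 to 11496444, the sixteenth longest of 2469. Its domains held 241 of 295 scored fat body fragments of the interval (81.7%, against 56.1% on the arms). The top state of the 3-state model held 159 (53.9%, against 27.2%) and broke the signal inside the brain domain into 4 pieces. The longest ran 91.1 kb from 11374168 to 11465220 and the next 56.2 kb from 11309276 to 11365448.

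The brain profile had its own high points. The highest brain bins after 11440001 were those from 11380001, at 6.32 (SD 1.18, n = 17), and from 11310001, at 6.17 (SD 0.95, n = 10). In the former bin the fat body was at 1.25 and glia at 3.47, and in the latter they were at 1.52 and 3.87. The highest single brain fragments were spread over the domain. That from 11448951 to 11449075 reached 8.51, with 5.82 in glia. That from 11396135 to 11396864 reached 8.50, with 3.77 in glia and 2.77 in the fat body. That from 11285233 to 11285658, close to the left edge, reached 8.44, with 0.12 in glia. High brain fragments thus occurred in the bin where fat body peaked and, near the left edge, where glia was near its median. The fragment near the left edge had no fat body score.

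**Figure D3:**
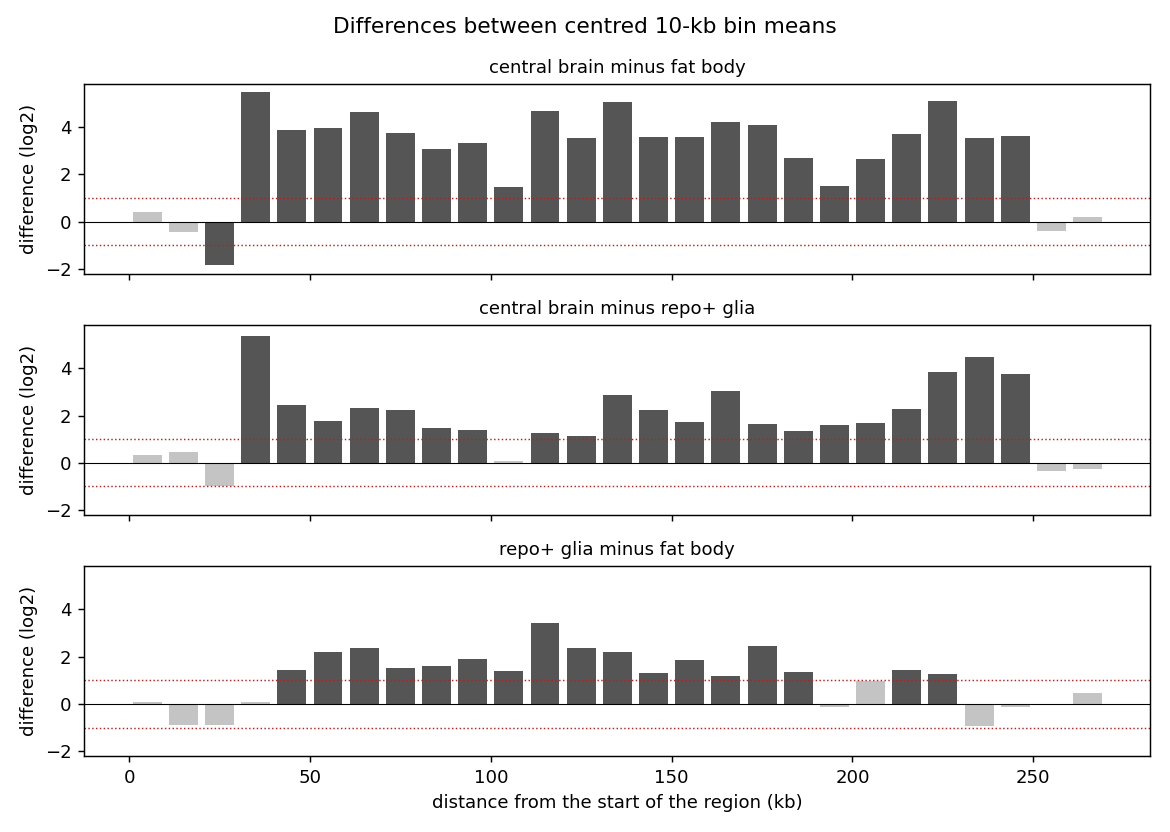
Difference between centred 10-kb bin means (log2) against the distance from the start of the region in kb, for each pair of profiles. Dark bars are over 1 apart (dotted lines), and brain exceeds fat body by over 1 in 22 of 27 bins and glia by over 1 in 21.

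Pairwise, brain was over 1 higher than fat body in 22 of the 27 bins, against 19.2% of 9827 bins on the arms. Fat body was over 1 higher in 1 bin, against 40% on the arms. That bin, from 11270001, lay outside the domain and was at -0.22 in the fat body (n = 20) and -2.07 in brain, where it rested on 6 scored fragments. After quantile normalization, brain was over 1 higher in 18 bins (22% of 9424 bins on the arms) and fat body again in 1 (26.3%). The exceptions inside the domain were the bins from 11350001 and from 11430001, 11440001 and 11450001. As deposited, brain was over 1 higher in 20 bins and fat body in 4. Shares over the arms were not taken on that scale, where the profile medians differ (-1.24 in brain and 0.09 in the fat body). The largest centred differences after the left edge were 5.12 in the bin from 11470001 and 5.08 in the bin from 11380001.

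Brain was over 1 higher than glia in 21 bins, against 22.5% of 10401 bins on the arms, and glia was over 1 higher in none, against 28.2%. This count depended on the scaling. It was 15 as deposited, with no share over the arms on that scale. After quantile normalization it was 6, against 21.3% of 9424 bins on the arms. The 6 were the left edge bin from 11280001 (4.05), the 3 bins at the right end from 11470001, 11480001 and 11490001 (2.40, 3.12 and 4.07), the bin from 11310001 (1.27) and a bin of the left flank from 11260001 (1.05). At both ends of the domain brain was thus over 1 above glia as deposited, centred and quantile normalized, whereas in between it was so after quantile normalization in the bin from 11310001 alone. In the bin from 11480001 the centred means were 5.17 in brain (SD 0.81, n = 13), 0.68 in glia (SD 0.82, n = 13) and 1.62 in the fat body (SD 1.29, n = 13), a gap of 4.48 between brain and glia. The gap was 3.83 in the bin from 11470001, where glia was at 1.62 (n = 11).

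Glia was over 1 higher than fat body in 17 bins, against 11.5% of 10768 bins on the arms, and fat body was over 1 higher in none, against 25.7%. As deposited the counts were 8 and 3, again with no share over the arms. After quantile normalization they were 16 and 0 (18.5% and 20.9% of bins on the arms). The largest differences after the bin from 11360001 were 2.44 from 11420001 and 2.38 from 11370001. Glia minus fat body was lowest at the right end, at -0.94 in the bin from 11480001, and was -0.90 and -0.87 in the left flank bins from 11260001 and 11270001. Within the bin from 11480001 the 3-state model called a short fat body piece of 3.92 kb, from 11485530 to 11489447, with a mean of 2.69 over 6 fragments.

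On average the flanks lay below the profile medians. Left of the brain domain the means were -0.76 in brain (n = 35), -0.85 in the fat body (n = 46) and -1.26 in glia (n = 70). Right of it they were -0.24 (n = 16), -0.65 (n = 31) and -0.37 (n = 41). The lowest bin of each profile was that from 11260001, at -2.36 in brain (n = 9), -1.91 in the fat body (n = 12) and -2.81 in glia (n = 17). The next bin, from 11270001, was at -2.07, -0.22 and -1.10 in the same order. The first bin inside the left limit of the interval was at 0.39 in brain, -0.02 in the fat body and 0.05 in repo+ glia. The bin just outside it was at -0.32 in brain and 1.41 in glia, with too few fat body scores (4) for a mean. At the right limit the last bin inside was at -0.97, -1.18 and -0.73, and the first outside at 0.28, 0.83 and 0.11. No bin with a mean at either limit was over 2. Domains of the 2-state model nevertheless reached into the left flank, from 11179921 to 11257283 among glia (mean 2.37 over its whole length) and from 11170350 to 11255755 in the fat body (mean 1.09). At the right limit a 3-state fat body domain ran from 11518145 to 11522223, with a mean of 2.59 over 11 fragments.

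**Figure D4:**
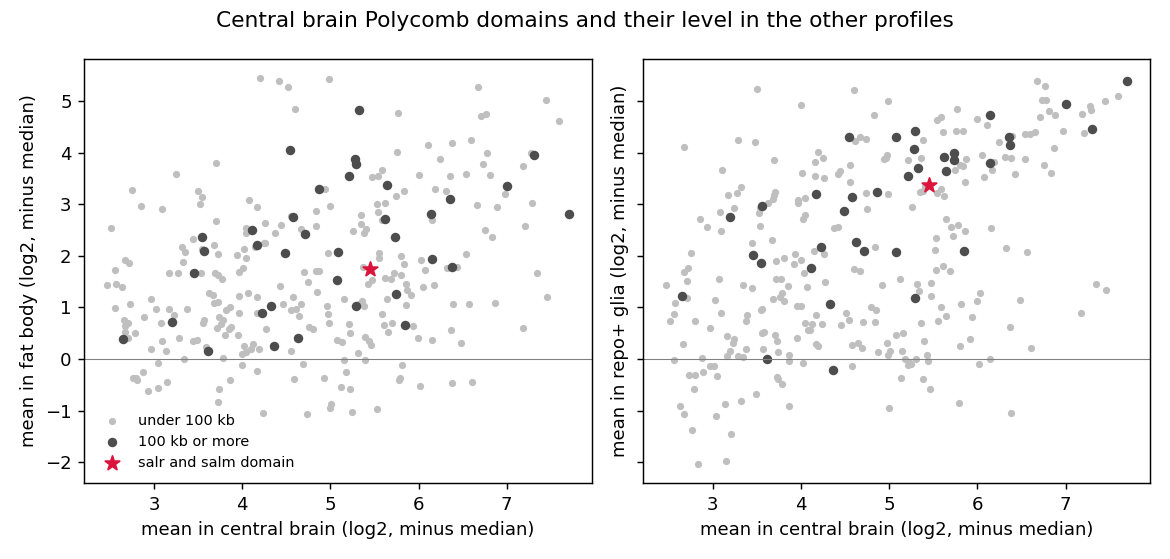
Mean level of each central brain domain of the 2-state model in brain (horizontal axis) and in the fat body or glia (vertical axes), in log2 units minus the profile median. The salr and salm domain (star, 5.45 in brain, 1.74 in the fat body and 3.37 in glia) lies inside the cloud of brain domains of 100 kb or more (dark points) in both panels.

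Set against the other brain domains, the salr and salm domain had 30.7% of 306 others above it in brain level. In glia 29.6% of 304 others were higher and in the fat body 42.0% of 288. Among the 36 others of 100 kb or more, 12 were higher in brain, 17 in glia and 24 in the fat body. The median of those long domains was 5.08 in brain, 3.22 in glia and 2.28 in the fat body. By its means the domain was thus well inside the range of long brain domains, with a fat body level below their median.

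The bin from 11440001 was compared with every other bin by the Euclidean distance between their 3 centred means. Of 9816 bins, 56 lay within a distance of 1. The 5 nearest that lay at least 100 kb from each other and from the interval were on 2R from 8780001 (distance 0.23, with 6.48 in brain, 5.18 in the fat body and 5.20 in glia), on 2R from 3910001 (0.33), on 3R from 680001 (0.38), on 3L from 12450001 (0.43) and on 2L from 6540001 (0.43). A bin that is high in all 3 profiles was therefore found at other places too.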

How the data were processed

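DamID-seq libraries of Dam-Polycomb and Dam only were described by their labels, and 1 table of scores per GATC fragment was used. The submitters' processing notes name cutadapt, Bowtie2, HTSeq and the build dm3, with no versions. The deposited values are log2 ratios to Dam only that the authors averaged over replicates, as the file headers and the design text say. The base was checked on the values: 2589 brain, 5645 fat body and 6328 glial fragments lay at the steps that ratios of small counts give in log2 (tolerance 0.0011), against at most 791 at those of other bases. Why some fragments lack scores was not given in the sources used here. With no counts or single replicates, the depth is unknown and no test across animals was run.

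Each profile was centred on its median. Bins of 10 kb were means of at least 5 scored fragments, placed by fragment start. The odd-even scatter is the SD over bins of the distance from the odd or even mean of fragments to their midpoint, with at least 3 in each. Domains came from hidden Markov models over scored fragments of 6 arms (2 or 3 states, Viterbi path, emissions from a Student t with 4 degrees of freedom, runs of at least 5 fragments). The code was run on scores simulated from the fitted models, which cannot show how well those models suit the real scores. The interval, the members and the levels of 2 and 1 were chosen with earlier results of these data known. Named are the highest and lowest bins, the largest differences, domain edges, the 3 highest fragments of each profile and the 5 most similar bins. Fragments over 5 or 6, the bins between the rises and the domain ends were chosen after their values were seen. Python 3.11.15 was used with numpy 2.4.6, pandas 2.3.3, numba 0.67.0 and matplotlib 3.10.9.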

Additional observations from a re-analysis of the deposited data

How the results depend on the processing

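Of 126 alternative values, 94 stayed within the odd-even scatter of bin means (for means) or within 1.5 times (for counts and lengths), and 32 moved further. None of the means changed sign, which counts and lengths could not do. The interval mean was 4.71 in brain, 1.08 in the fat body and 2.52 in glia. It moved to 5.21 (brain) and 3.14 (glia) as a median over fragments, to 4.35, 1.42 and 2.23 over fragments scored in all 3 profiles, to 3.48 (brain) and 1.92 (glia) as deposited, to 3.22 in brain after quantile normalization, to 2.18 in glia with fragments of 200 to 2000 bp, and to 5.53, 2.05 and 3.79 without the outer 50 kb on each side. Fat body bins over 2, 6 in number, became 3 with at least 10 scored fragments per bin, 18 at a level of 1 and 3 at a level of 3. With at least 10 scored fragments, brain over fat body fell from 22 to 12 bins, fat body over brain from 1 to 0 and glia over fat body from 17 to 8, since fewer bins could be compared. At a difference of 2, brain over glia fell from 21 to 11, glia over fat body to 6 and fat body over brain to 0. As deposited, fat body over brain rose to 4, glia over fat body fell to 8, fat body over glia rose from 0 to 3 and glia over brain from 0 to 1. Quantile normalization gave 6 bins for brain over glia and 1 for glia over brain, which was also 1 with bins shifted by 5 kb. Fat body over glia was 1 with medians, 2 with fragments of 200 to 2000 bp and 1 with fragments scored in both. Fat body domain length fell from 232 to 54.6 kb with a running mean over 11 fragments. No paired analysis was possible because the deposited scores are means over replicates, and no replicate could be left out.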
